A study of Triticum aestivum with 6 samples.

Results

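The genes described here are 3 RING-type E3 ubiquitin transferases and 2 SUMO E3 ligases of bread wheat, 5 of the 861 genes in the authors' deposited DESeq2 table. Over all tests implied by its adjusted p-values (false discovery rate, FDR), 1.12% were listed in either direction and 0.548% on the negative side of the log2 fold change, where all 5 members lay. The members were chosen by description, with the condition that the gene in the probe name is also the annotated gene. That table lists only genes whose FDR was under 0.05, so the members were selected from values of the same comparison. Nothing is read from their count against these shares, and their fold changes are given as a description with no test. The compared plants were seedlings of the winter wheat breeding line SE15. In the ultrasound group, 100 seeds were sonicated at 30 kHz and 70 W for 5 minutes, 4 cm from the ultrasound head, and in the control group 100 seeds received no sonication. Seeds of both groups had a water content of 13.6% and germinated in the dark at 20 °C, and leaf was sampled at 7 days in 3 ultrasound and 3 control samples.

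The deposited statistics call the compared groups K1 and US1 and do not say which was divided by which, nor which samples entered. A negative log2 fold change would mean lower expression after ultrasound if US1 was divided by K1, and the sign is kept here as deposited. Values per library were not analysed here, so the expression level, the depth and the spread of each gene among replicates are unknown, and the leaf label could not be checked against marker levels. Among listed genes with a description of their own, 52 matched leaf markers such as chlorophyll a-b binding proteins, 1 matched root markers (a nicotianamine transporter) and 0 matched seed markers. All 52 leaf markers lay on the positive side, with a median log2 fold change of 2.31, opposite to the 5 ligase genes, and their part in the ligase values was not tested. In whole-leaf samples, fewer cells of a type and less RNA per cell cannot be told apart. Whether the samples within a group were grown apart is not stated, so the p-values may measure technical spread. Each error below is an implied standard error (SE), recovered from a gene's log2 fold change and p-value on the assumption of a normal test statistic.

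Ubiquitin is a small protein that is attached to other proteins in a cascade of activating (E1), conjugating (E2) and ligating (E3) enzymes, often as a signal for breakdown by the proteasome. The E3 ligase selects the target, and a RING-type E3 does so by bringing a charged E2 enzyme and the target together. SUMO is a related small modifier with a cascade of its own, which changes the activity, location or partners of a protein. In plants, SUMO ligases of the SIZ type are known from Arabidopsis and rice for roles in stress responses.

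All 3 RING-type genes lay far on the negative side, at log2 fold changes between -4.44 and -3.57. In the authors' deposited table, the 6A gene TraesCS6A02G382300 was at -4.44 (SE 0.97), an unshrunk ratio of 21.7 with a 95% range from 5.84 to 80.7. Its DESeq2 adjusted p there was 0.00162. The 6D gene, TraesCS6D02G367100, was at -3.60 (SE 0.67) in the authors' deposited table, a ratio of 12.2 with a range from 4.88 to 30.3. It had the lowest DESeq2 adjusted p of the members in that deposited table, 8.24e-05, and stood at place 74 of 861 by p-value. TraesCS6B02G420600 on 6B had -3.57 (SE 0.80) in the authors' deposited table, a ratio of 11.9 with a range from 3.98 to 35.3, and a DESeq2 adjusted p of 0.00288. The median absolute log2 fold change over all 861 genes was 1.81, but at their SEs these genes could be listed only from 3.33 (6A), 2.32 (6D) and 2.77 (6B) upward, so the threshold placed them above that median. By absolute fold the 6A, 6D and 6B genes held places 72, 99 and 102. Their implied SEs were also above the median of 0.43 over all listed genes, so the folds were less precise than most.

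**Figure D1:**
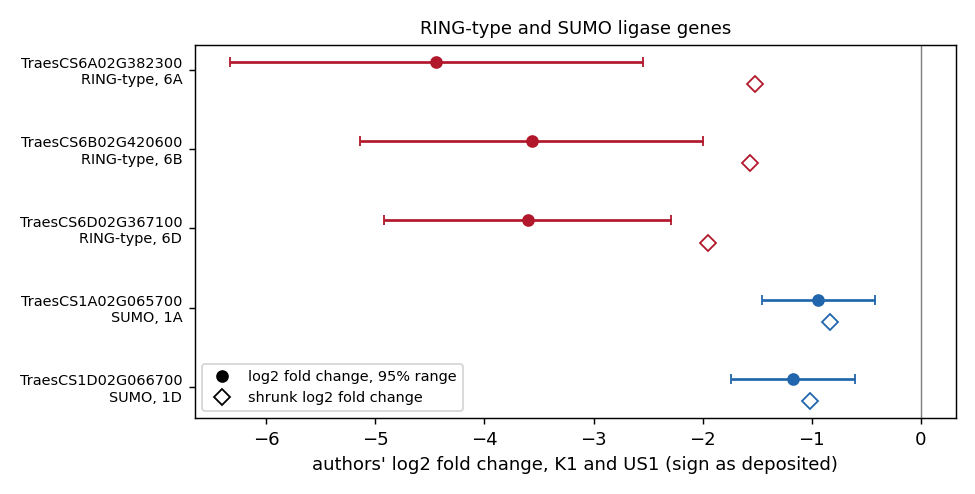
Authors' log2 fold change of the 5 ligase genes (filled points, with bars for the 95% range from the implied SE) and the authors' shrunk log2 fold change (open diamonds). The sign is as deposited. The RING-type genes reach -4.44 with wide ranges, while the SUMO ligases sit near -1 with narrow ranges.

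The RING-type genes lay on 6A, 6B and 6D, with 1 listed gene per subgenome of this hexaploid species. The files give them the same description but do not state that they are copies of 1 ancestral gene. Each was identified by its first transcript model, and their annotated spans were similar in length. TraesCS6A02G382300 covered 1598 bp (chromosome 6A, 601396885 to 601398482, minus strand), and TraesCS6D02G367100 covered 1608 bp (6D, 455084725 to 455086332, minus strand). TraesCS6B02G420600 covered 1719 bp (6B, 691863740 to 691865458) and was on the plus strand, unlike the other two. Positions are as deposited, on a genome build not given in the sources, and the annotation names whole genes without exons or UTRs.

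No difference between the copies was larger than its error. On the log2 scale the 6A value minus the 6B value was -0.87 (SE 1.26, 95% range from -3.34 to 1.59). The 6A value minus the 6D value was -0.84 (SE 1.18, range from -3.14 to 1.47). The 6B value minus the 6D value was 0.036 (SE 1.05, range from -2.02 to 2.09). These 3 ranges treat the errors of the copies as independent, which the shared samples do not assure, and they are wide enough to hold a difference of 2 log2 units in either direction for 6B against 6D. They do not show that the copies were alike.

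The order of the copies depended on the authors' shrinkage, which pulls imprecise folds toward 0. The deposited table gave shrunk log2 fold changes of -1.52 for 6A, -1.56 for 6B and -1.95 for 6D, so that 6D had the largest shrunk fold and 6A the smallest. The shrunk fold kept 34.2% of the unshrunk log2 value for 6A, 43.8% for 6B and 54.2% for 6D. By absolute shrunk fold, TraesCS6D02G367100 held place 35 of 861, TraesCS6B02G420600 place 143 and TraesCS6A02G382300 place 163. On the shrunk scale the 6A gene was higher than the 6D gene by 0.43 and higher than the 6B gene by 0.042. Both of these differences had the other sign on the unshrunk scale. The 6B gene was higher than the 6D gene on both scales, by 0.39 on the shrunk one.

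**Figure D2:**
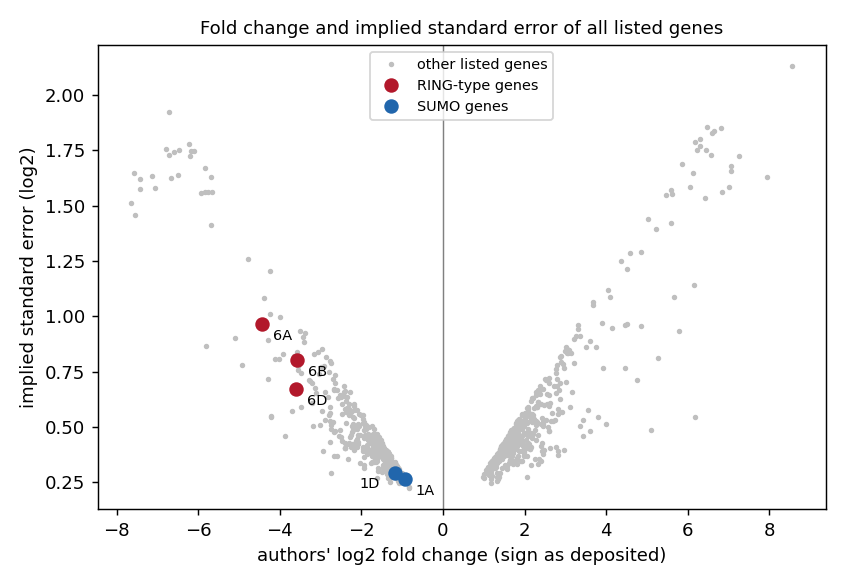
Authors' log2 fold change (horizontal) against implied SE (vertical) for all 861 listed genes, with the RING-type genes in red and the SUMO ligases in blue, labelled by chromosome. The RING-type genes have SEs from 0.67 to 0.97 and the SUMO ligases 0.26 and 0.29. The empty wedge around 0 is the area that the FDR threshold of the table leaves out.

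For comparison, 7 descriptions were each held by exactly 1 listed gene on A, B and D of the same chromosome group. In each of these 7 sets all 3 genes lay on the same side, and 2 of the sets were negative. These were the RING-type set and glutamate decarboxylase, which makes GABA and was named after its values were seen. The RING-type folds spanned 0.87, which placed the set at number 5 by spread, while the other 6 sets spanned from 0.27 to 3.88. Divided by the mean SE of the set, the RING-type span was 1.07, against a median of 1.90 over the other sets. The widest set was ferredoxin-nitrite reductase on group 6, an enzyme of nitrogen assimilation, whose values ran from 2.41 (SE 0.60) on 6D (TraesCS6D02G313100) to 6.29 (SE 1.77) on 6B (TraesCS6B02G364600). On the shrunk scale that order turned too, with 1.43 on 6D and 0.80 on 6B. The narrowest was fructose-bisphosphate aldolase on group 5, an enzyme of sugar metabolism, from 1.73 to 1.99. All 3 copies had to pass the FDR threshold to form such a set, so sets with a copy of smaller fold are missing from this comparison.

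**Figure D3:**
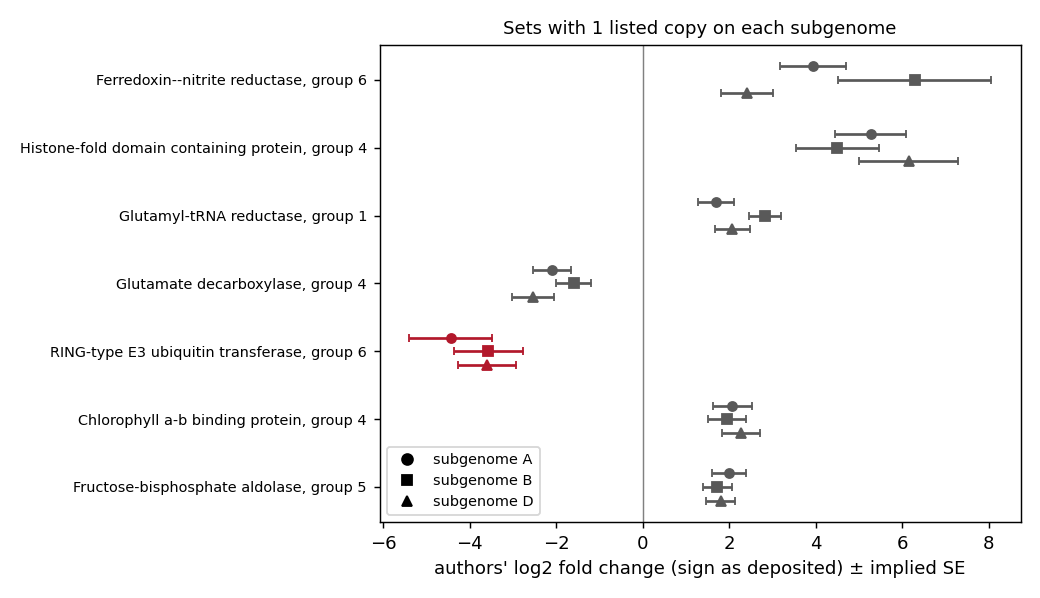
Authors' log2 fold change of each gene, with bars of 1 implied SE, in the 7 sets with 1 listed gene on each subgenome, ordered by spread with the widest on top. Markers show the subgenome and the RING-type set is in red. Its 3 points run from -4.44 to -3.57 and their bars overlap.

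Both SUMO ligase genes were also on the negative side, with folds among the smallest of the list. TraesCS1D02G066700 had a log2 fold change of -1.17 (SE 0.29) in the authors' deposited table, a ratio of 2.25 with a 95% range from 1.52 to 3.35, and a DESeq2 adjusted p of 0.0112. TraesCS1A02G065700 had -0.94 (SE 0.26) in the authors' deposited table, a ratio of 1.92 with a range from 1.34 to 2.75, and a DESeq2 adjusted p of 0.0402. By absolute fold these genes held places 800 and 857 of 861. Their SEs were below the median of the list, and the shrunk values in the deposited table, -1.02 for 1D and -0.83 for 1A, stayed within 1 SE of the unshrunk ones. The 1D value minus the 1A value was -0.23 (SE 0.39, range from -1.00 to 0.54), a difference smaller than its error.

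The SUMO ligases had the longest spans of the members. TraesCS1D02G066700 covered 21.5 kb (chromosome 1D, 48380218 to 48401734, plus strand) and TraesCS1A02G065700 covered 15.6 kb (1A, 48575894 to 48591514, plus strand). By length they held places 11 and 15 of 861, where the median was 1789 bp. Their probes named transcript models 7 and 5. The description of both was projected from a rice gene and names abiotic stress and stress adaptation. A 1B counterpart was not analysed here. Of 19 descriptions held by 1 listed gene on each of just 2 subgenomes of a chromosome group, 18 had both genes on the same side, the exception being pectin acetylesterase, named after its values were seen. The SUMO pair differed by 0.23, close to the median of 0.22 over the other 18 pairs. A shared description and chromosome group do not make such genes counterparts, and both had to pass the FDR threshold.

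The members lay at different distances from the threshold of the table. The largest p-value listed corresponds to an absolute fold of 3.45 SEs. At its own SE, TraesCS1A02G065700 would have been listed down to an absolute log2 fold change of 0.91, so it passed by 0.028, and TraesCS1D02G066700 passed by 0.17. The 6B, 6A and 6D RING-type genes passed by 0.80, 1.11 and 1.29. These margins are in log2 units and grow with the SE of the gene. Divided by their SEs, the log2 fold changes were -4.44 (6B), -4.60 (6A), -5.37 (6D), -4.03 (1D) and -3.55 (1A). Genes just outside the threshold were not analysed here. At an FDR under 0.01, which 0.251% of all tests met on the negative side, the 3 RING-type genes were still listed and both SUMO ligases were not.

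No further gene of the ubiquitin and SUMO systems was recognised by description. The pathway list of keywords covered ubiquitin, SUMO, RING-type, RING finger, U-box, F-box, HECT, cullin, SKP1, BTB, Kelch, NEDD8, the anaphase-promoting complex and the proteasome. Other forms of the RING name were not searched. It matched the same 5 listed genes, all 5 of them negative, with a median log2 fold change of -3.57. Of all 861 listed genes 420 (48.8%) were negative, and of the 227 other genes with a description of their own 64 were (28.2%). As 72.0% of the listed genes had no description, ligases among those could not be counted. The authors' second deposited table, of 52 probes with a Z-score of the difference, held 0 of the 5 members and 0 descriptions of the pathway list. How many of the 861 listed genes it held was not counted, so nothing is read from the absence of the members.

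The nearest listed gene before and after each ligase, by the gap between gene ends, shared the side of that ligase in some places but not in others. On 6A the closest was TraesCS6A02G381400, undescribed, 248 kb before the RING-type gene and at -2.83 (SE 0.63) in the authors' deposited table, while on the other side TraesCS6A02G392100 was 5.37 Mb away at -1.28 (SE 0.35). On 6B both flanking genes were positive in the deposited table, with TraesCS6B02G419600 at 4.36 (SE 1.25) and TraesCS6B02G425400 at 1.67 (SE 0.41). The 6D gene had no listed gene within 5 Mb. The nearest after it was TraesCS6D02G379100, 5.73 Mb away at -6.80 (SE 1.76) in the authors' deposited table. The nearest before it was TraesCS6D02G314300, an allene oxide cyclase of jasmonic acid synthesis, 32.5 Mb away at 1.62 (SE 0.34) in the same deposited table. Thus the negative side was not shared by listed neighbours on all 3 chromosomes.

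The nearest listed gene before each SUMO ligase was undescribed and on the negative side. These were TraesCS1A02G065300, which ended 988 kb before the 1A gene at -1.45 (SE 0.36), and TraesCS1D02G066000, which ended 664 kb before the 1D gene at -1.52 (SE 0.41), both from the authors' deposited table. Both exceeded the ligase beside them in absolute fold, but no error was computed for these differences. On the other side the nearest listed genes were farther away and differed in sign, TraesCS1A02G084300 at 2.00 (SE 0.47) after 21.4 Mb and TraesCS1D02G079100 at -1.80 (SE 0.39) after 13.1 Mb, as the authors' deposited table gives them.

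**Figure D4:**
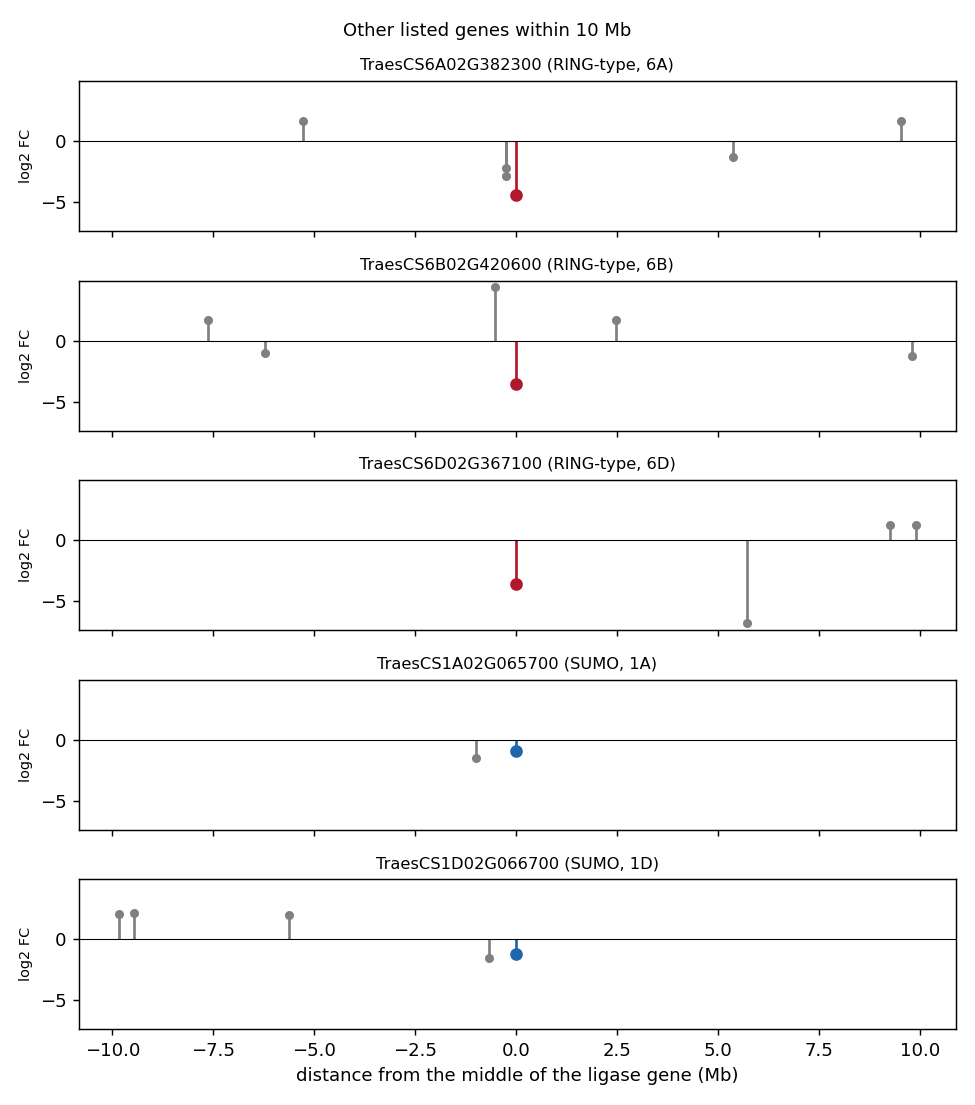
Listed genes within 10 Mb of each ligase gene, by distance from its middle (horizontal, Mb) and authors' log2 fold change (vertical, sign as deposited). Each panel is a ligase gene, coloured at 0, with other listed genes in grey. The nearest listed gene on each side of the 6B gene at -3.57 is positive, with genes of both signs farther out. Within 1 Mb of the 6A gene, 2 other genes are listed, both negative. The SUMO ligases each have a negative neighbour close on the left.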

How the data were processed

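Leaf mRNA of wheat seedlings was sequenced on an Illumina NovaSeq instrument after poly-T enrichment, per the labels' protocols. Tools listed in the submitters' processing notes were STAR 2.7.10a, DESeq2 with no version given, Trim Galore 0.6.7 and FastQC 0.11.9. Per the file headers, the first deposited table gives, per probe, the authors' log2 fold change before and after shrinkage, with its p-value and FDR. The second deposited table gives a score (a Z-score difference) with its p-value and FDR, from a test that no header names.

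No test of expression was run, because it needs values per library. The planned edgeR test was therefore not used. Implied SEs assume a Wald test. The quotient of the fold ratio (unshrunk over shrunk, minus 1) and the squared SE, constant under a normal prior, had quartiles of 1.82 and 1.85. For the RING-type genes, an SE from the fold ratio and the median quotient was larger than the one from the p-value. It was 1.02 against 0.97 (6A), 0.84 against 0.80 (6B) and 0.68 against 0.67 (6D). For the SUMO ligases it was slightly smaller, 0.264 against 0.265 (1A) and 0.290 against 0.291 (1D). The FDR values implied 76618 tests, and up to 6 further probes may have passed. Both derivations were run on simulated data made with the same formulas that they invert. That run cannot show that the authors' values follow these formulas. Members, lists and the rule for named genes (all members, pathway genes, flanking listed genes and the widest and narrowest sets of copies) were chosen with earlier results of these data known. The RefSeq gene table matched 0 members. Python 3.11.15, pandas 2.3.3 and SciPy 1.17.1 were used.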

Additional observations from a re-analysis of the deposited data

How the results depend on the processing

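All 5 members stayed on the negative side on the authors' shrunk scale. The RING-type values moved by more than 1 SE there, to -1.52 (6A), -1.56 (6B) and -1.95 (6D), and the differences 6A minus 6B and 6A minus 6D changed sign, to 0.042 and 0.43, by construction, since imprecise folds are shrunk more. With the SE taken from the shrinkage ratio, the 3 differences between copies had 95% ranges that still held 0. That SE was scaled to the first by the median quotient over all listed genes, so it is not an independent check. At an FDR under 0.01 the count of negative members, and of the pathway list, was 3 in place of 5. With a minimum of 2 for the absolute log2 fold change it was also 3. Of all 420 negative listed genes, 192 met the first of these cuts and 162 the second, and nothing is read from the member counts. Counting each description as 1 vote gave 2, and leaving the members out of the pathway list gave 0. Adding descriptions of overlapping genes or any mention of ubiquitin gave 5. No paired analysis was possible because the tables hold no values per library, and leaving out replicates could not be run for the same reason. Depth is unknown.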
